A study of Homo sapiens with 23 samples.

Results

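The cytosolic ribosomal protein genes were described across 13 lines of MCF10A, a non-transformed human mammary epithelial cell line. Members were the genes whose symbol is RPL, RPS or RPLP followed by a number and at most 1 letter A, X or L, so that pseudogenes and mitochondrial ribosomal proteins were left out. The rule used names only, and it found 80 of the 58358 genes listed, of which 77 passed a filter on low values (a log2 level of at least 1 in at least 3 lines). RPL36 was singled out because it was the highest gene listed for the R273H library, so its level there is a description. RNA of each line was sequenced once, without replicate libraries, and the deposited values are log2(TPM + 1), called log2 levels here. TPM divides the reads of a gene by its length and scales each library to the same sum, so that levels of different genes can be compared.

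All lines were grown untreated in serum with EGF, insulin, hydrocortisone and cholera toxin. The 4 DNA contact mutants of p53 (R248Q, R248W, R273C and R273H) and 6 structural mutants (Y163C, R175H, H179R, Y220C, Y234C and G245S) were expressed with a C-terminal V5 tag from a lentiviral vector. These cells keep their own wild-type p53. The 3 control lines were the parental line WT, the line WTKD with p53 knocked down by shRNA and the line WTOE with V5-tagged wild-type p53 from a different vector, so vector and mutation cannot be told apart between WTOE and the mutants. Each line is a single stable population, and a p-value over lines sets a group difference against the spread between these libraries. That spread holds differences between mutations, lines and libraries together. In bulk RNA, fewer cells that express a gene and less RNA per cell cannot be told apart.

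Each cytosolic ribosome joins a large subunit, which forms peptide bonds, and a small subunit, which decodes the mRNA, and every subunit carries 1 copy of nearly all of its proteins. The P-stalk proteins RPLP0, RPLP1 and RPLP2 recruit elongation factors to the large subunit. Most ribosomal protein mRNAs start with a C followed by a run of pyrimidines, the 5′ terminal oligopyrimidine (TOP) motif, through which mTOR and LARP1 control their translation. Some free ribosomal proteins, above all RPL5 and RPL11, bind MDM2 and thereby stabilise p53 when ribosome assembly is disturbed.

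The start sites show what the members share beyond their names. In the RefSeq promoter windows of GRCh38.p14, 63 member genes were matched by symbol, with 78 annotated starts. A C at the start followed by at least 4 C or T stood at 45 of these 78 starts (57.7%), against 3.95% of 35038 other windows and 4.94% of the 13906 other windows of genes tested here. The sequences below run from 30 bases before the annotated start to 20 bases from it, and the capitals mark the pyrimidine run that begins with C at the start. The first 8 are examples of members described below whose annotated start carries the run. RPL19, RPL3, RPS15 and RPS29, also described below, have no annotated start with it.

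RPL36: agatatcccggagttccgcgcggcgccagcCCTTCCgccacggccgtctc
RPLP2: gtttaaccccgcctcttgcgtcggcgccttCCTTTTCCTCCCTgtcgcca
RPS12: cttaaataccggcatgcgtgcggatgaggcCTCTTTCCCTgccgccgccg
RPS27: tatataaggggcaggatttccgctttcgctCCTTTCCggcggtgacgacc
RPL28: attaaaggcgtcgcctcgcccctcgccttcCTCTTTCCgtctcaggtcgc
RPL35: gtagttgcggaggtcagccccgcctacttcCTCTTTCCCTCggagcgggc
RPL21: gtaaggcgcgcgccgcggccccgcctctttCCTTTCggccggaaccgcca
RPS10: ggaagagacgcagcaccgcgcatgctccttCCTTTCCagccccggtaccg

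The next 3 are members whose annotated start lacks the run. RPS27L is the stress-responsive paralog of RPS27, and RPS26 and RPS28 are small-subunit proteins.

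RPS27L: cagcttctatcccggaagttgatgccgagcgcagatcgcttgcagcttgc
RPS26: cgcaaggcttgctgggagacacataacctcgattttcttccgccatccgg
RPS28: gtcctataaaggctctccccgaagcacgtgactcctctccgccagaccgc

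These windows lie at chr19:5690265-5690314 (RPL36), chr11:809937-809986 (RPLP2), chr6:132814539-132814588 (RPS12), chr1:153990732-153990781 (RPS27), chr19:55385902-55385951 (RPL28), chr13:27251528-27251577 (RPL21), chr12:56041888-56041937 (RPS26) and chr19:8321466-8321515 (RPS28) on the plus strand. Those of RPL35 (chr9:124861938-124861987), RPS10 (chr6:34426050-34426099) and RPS27L (chr15:63157458-63157507) are on the minus strand. Of other letters searched on both strands of the 300-base windows, CCGGAA, the core of ETS-family sites, was in 53.8% of member windows, 27.1% of the other windows of tested genes and 17.2% of all windows. AAGATGGC, the core of YY1 sites, was in 7.69%, 4.92% and 2.89%, and TATAAA in 7.69%, 6.41% and 11.5%. These shares are counts of letters, and binding of a factor was not measured by them. Between the 45 tested members with a TOP start and the 17 with a window but none, the median log2 level was 9.62 and 9.34.

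The libraries are named here by their labels. Read counts are not in the table used here, so the depth behind each level is unknown. Between 12122 genes (R273H) and 15975 (Y163C) had a value above 0. The 50 highest genes took 37.4% of TPM in R273H and 46.8% in Y234C, against 27.1% to 33.6% elsewhere, and the median log2 level of all tested genes was 2.85 and 2.63 there, against 3.47 to 3.85. All 8 epithelial markers passed the filter, with a sum of 1080 TPM (R273H) to 4698 TPM (Y234C), while the 7 fibroblast, 5 endothelial and 6 blood markers summed to at most 61.7, 6.13 and 48.9 TPM, and 5 of the 6 blood markers were listed at 0 in every line. KRT5 was the highest epithelial marker in every line, at 9.97 (R273H) to 11.85 (Y234C). In R273H, TP63 and KRT14 were listed at 0, CDH1 had 0.25, and the rest apart from KRT5 lay between 3.33 (KRT17) and 5.08 (LAMB3). R248Q also had low CDH1 (0.96) and EPCAM (2.53), but KRT14 at 8.23 and ITGB4 at 7.76. TP63 was also listed at 0 in R248W and R273C. The epithelial markers lay below the mean of the other 9 mutants in R273H (8 of 8) and above it in Y234C (8 of 8). Of all tested genes, 26.7% lay above that mean in R273H and 76.4% below it in Y234C. The part of these markers in the members' values was not tested.

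The 80 ribosomal protein genes together held 10.7% of all TPM in the median line, and between 9.27% (H179R) and 12.4% (R175H) in every line but R273H, where they held 15.4%. The share was 11.0% ± 1.51 (SD, n = 3) in the control lines, 12.0% ± 2.35 (n = 4) in the contact mutants and 10.7% ± 1.15 (n = 6) in the structural mutants, and the 3 groups overlapped. Without RPL36 the R273H share was 12.4%, the highest still, next to 12.2% in R175H, and the contact mutants came to 11.2% ± 1.07. That rank depends on the total. With the 50 highest other genes also left out of the total, the share without RPL36 was 16.7% in R273H and 16.8% in R175H.

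**Figure D1:**
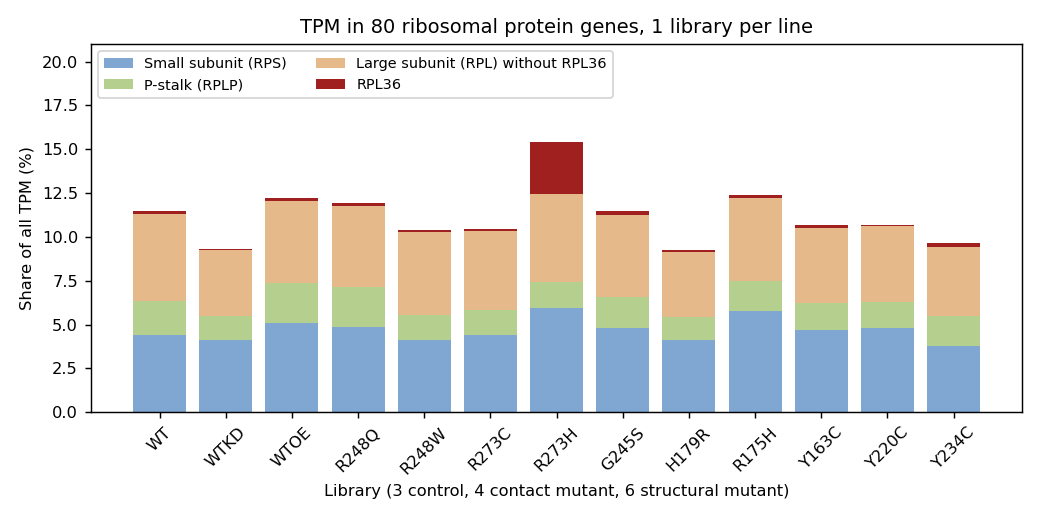
Share of all TPM (vertical axis, percent) held by the 80 ribosomal protein genes in each of the 13 libraries, split into small subunit, P-stalk, large subunit without RPL36, and RPL36. The R273H bar reaches 15.4% with RPL36 alone at 2.96%, and the other 12 bars lie between 9.27% and 12.4%.

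The large-subunit genes (RPL) held 3.82% to 5.14% of TPM outside R273H and 7.98% in it. Small-subunit genes (RPS) held 3.75% (Y234C) to 5.96% (R273H), and the 3 stalk genes 1.32% (H179R) to 2.27% (WTOE). In each library, 11 (Y234C) to 19 (Y163C) of the 50 highest genes were members. Genes of mitochondrial ribosomal proteins, 78 in number, together held only 0.612% to 0.908%.

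Levels of single members spanned a wide range although most of their proteins sit in the ribosome in equal number. RPLP2, a P-stalk protein, was the highest, with a mean log2 level of 13.82 ± 0.30 (SD over 13 lines) and an arithmetic mean of 14772 TPM. RPL19 (12.40 ± 0.33), of the large subunit, and RPS12 (12.23 ± 0.67), of the small subunit, were among the 5 highest and differed from each other by less than their SDs. RPLP2 lay above both in each library. A mean of at least 10 was reached by 31 members, and 9 of the tested members had a mean below 5.

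The members also differed in how steady they were. The smallest SDs over the 13 lines among the members tested were those of RPLP0 (0.20), RPL11 (0.27), RPS19 (0.29) and RPL15 (0.29). RPLP0, the base of the stalk, lay between 8.51 (WTKD) and 9.25 (R273H). RPL11, 1 of the 5S RNP proteins that bind MDM2, lay between 10.80 (R248Q) and 11.72 (WT). The SD was below 0.5 for 29 of the 77 tested members and at least 1 for 8 of them, with RPS26 (1.90), RPL7 (1.42), RPL21 (1.34), RPL36 (1.34) and RPL36A (1.27) as the most variable. The median SD was 0.58 over the members, against 0.95 over all 14884 genes tested. Among genes with a mean level of at least 8, it was 0.53 over 53 members and 0.59 over all 482, members included.

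For some low members, most of the TPM of the gene and its copies was listed under pseudogenes. Ribosomal protein genes have 1061 like-named pseudogenes in the table, 317 of which passed the filter, and the gene counts that STAR makes leave out reads that map to more than 1 place. For RPL9, 95.3% of the TPM listed for the gene and its copies was listed under the pseudogenes, with a mean of 369 TPM there and 18.4 under RPL9. The same share was 94.5% for RPL36A, 86.2% for RPL7, 74.7% for RPS26, 73.2% for RPL21, 62.1% for RPS3A and 60.4% for RPL23A. Of the 9 tested members with a mean below 5, 7 had over 50% of it in pseudogenes, and of the members at or above 5 only RPL23A did. A low level of the gene itself raises this share, since it is part of the sum. The number of copies does not set it alone, since RPL7A, with 37 copies and a mean level of 11.77, had 1.59% in pseudogenes. Levels of members with most of their TPM in pseudogenes are uncertain.

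Some of the low values are exact zeros in genes that every ribosome needs. RPL7 was listed at 0 in R273H and between 0.77 and 4.77 in the other 12 lines. RPS26 was listed at 0 in WT, R248Q, R273H and Y234C, and reached 5.19 in H179R. No fold is given against a library at 0.

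The 3 members that missed the filter are all paralogs of restricted tissue use. RPL10L, a testis-specific copy of RPL10, was listed at 0 in all 13 lines. RPL3L, the muscle counterpart of RPL3, had a level of 1.27 in Y220C and 0 elsewhere. RPL39L had 4.60 in R248Q, 1.45 in Y220C, 0.53 in WTOE and 0 in the other 10 lines.

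RPL36, a large-subunit protein (chr19:5674947-5691875, plus strand, GENCODE annotation of GRCh38), had the highest TPM of the genes listed for the R273H library. Mitochondrial RNA had been removed by the authors before TPM was computed. Its log2 level there was 14.85, or 29578 TPM, against 10.71 in R248Q, 9.61 in R248W and 10.40 in R273C. In the structural mutants the lowest, median and highest levels were 10.00, 10.60 and 11.25, and the control lines WT, WTKD and WTOE had 10.94, 9.47 and 10.88. R273H thus stood alone, and without it the mutants overlapped the control lines. The level in R273H was 4.35 above the mean of the other 9 mutants (10.50 ± 0.55, SD), which ranged from 9.61 to 11.25. By rank of level among all genes RPL36 was 1 in R273H and between 41 (Y234C) and 166 (WTKD) in the other lines. Ranked by the difference of R273H from the other 9 mutants, RPL36 was only 91, and HES4 was first.

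Genes next to RPL36 also stood high in R273H. C19orf70, which lies within the annotated span of RPL36, had a level of 8.86 where the other 9 mutants averaged 5.51, and SAFB, directly upstream, had 9.34 against 6.32. Other genes of the region were not high, with LONP1 at 5.60 against 5.65, SAFB2 at 4.08 against 5.13 and DUS3L at 2.05 against 2.69. Of the exon bases annotated to RPL36, 19.5% lie in exons of HSD11B1L or LONP1, and reads on such bases are left out of gene counts. Whether this bears on the level in R273H was not tested. The median difference in R273H was -0.22 over the 45 tested members with a TOP start and 0.15 over the 17 with a window but none, and RPL36 is among the former. In Y234C the same medians had the opposite order, at -0.57 and -1.03.

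**Figure D2:**
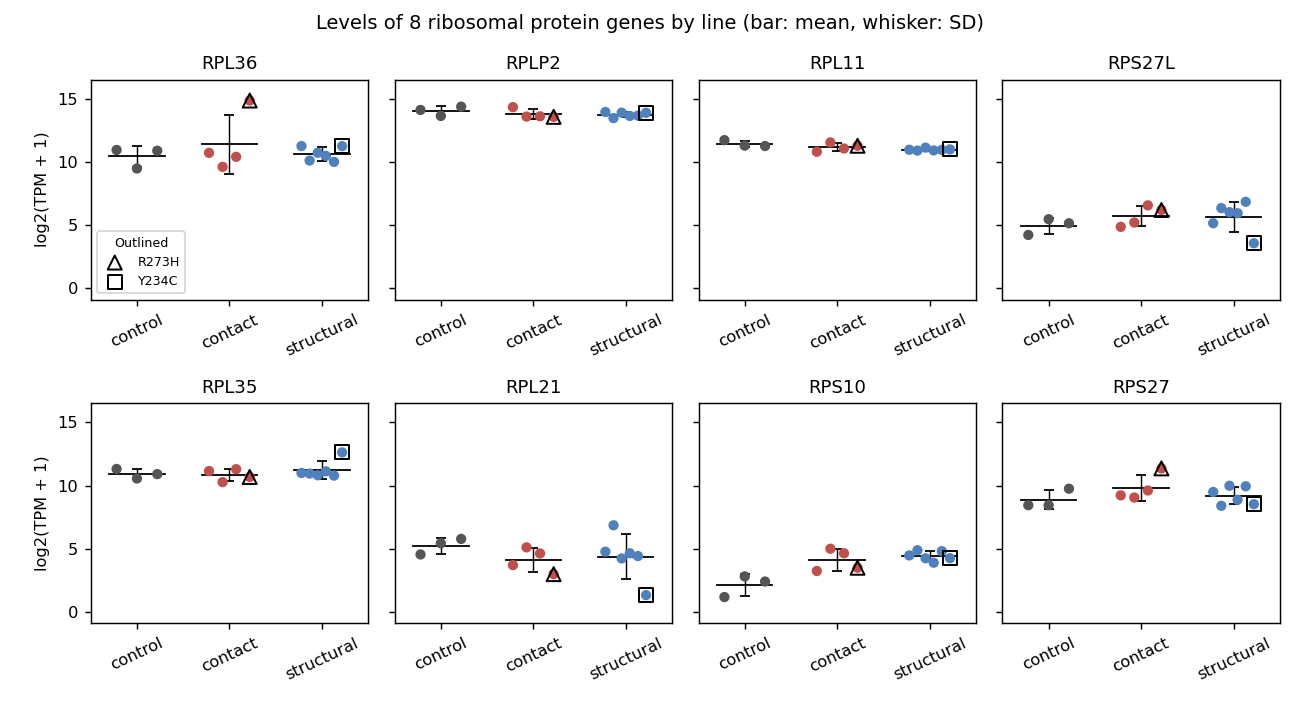
Log2 levels (log2(TPM + 1)) of 8 members in 3 control, 4 contact mutant and 6 structural mutant lines, with the mean and SD of each group, R273H outlined by a triangle and Y234C by a square. RPL36 is at 14.85 in R273H, RPL35 at 12.62 and RPL21 at 1.33 in Y234C, RPS10 is lower in the 3 control lines, and RPL11 spans 10.80 to 11.72.

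Beyond RPL36, R273H differed from the other mutants in both directions. Of the 77 tested members, 11, with RPL36 included, were at least 1 log2 unit above the mean of the other 9 mutants, where 11.3% of all tested genes were. A further 12 were at least 1 below it, where 37.6% of all tested genes were. With 1 library there is no test. RPS27, a small-subunit protein with a zinc finger, had 11.36 against 9.23 ± 0.57, and the other 9 reached at most 9.98. RPL28 had 9.80 against 8.14 ± 0.34, and RPS16 had 13.06 against 11.55 ± 0.52. In each of these 3 genes R273H lay above all other mutants. RPL36A had 3.64 against a range of 0.30 to 3.53, and it is 1 of the genes with most of their TPM in pseudogenes. RPL7 and RPS26 were listed at 0 in R273H. Apart from these, RPL37 had the largest difference below the other mutants, at 6.13 against 7.86 ± 0.80, and the level of RPL37 in Y234C was as low (6.02).

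In Y234C members lay on both sides of the mean of the other mutants. Of the tested members, 30 were at least 1 log2 unit below the mean of the other 9 mutants, where 45% of all tested genes were, and 3 were at least 1 above it, where 9.99% were. Of the 77, 29 (37.7%) had their lowest level of the 13 lines in Y234C and 4 (5.19%) their highest, against 24.2% and 6.12% of all tested genes, a difference that was not tested. RPL21, a large-subunit protein, had 1.33 against 4.59 ± 1.06 in the other 9 mutants, whose lowest was 2.99. RPS27L, which is induced by p53 in many cells, had 3.56 against 5.90 ± 0.69, and RPL30 had 8.86 against 10.98 ± 0.44. Y234C lay below all other mutants in these 3 genes. The 3 members that stood higher in Y234C were RPL35 (12.62 against 10.90 ± 0.30), RPS28 (5.43 against 4.10 ± 0.59) and RPL29 (10.18 against 8.91 ± 0.24). In RPL35, RPS28 and RPL29, Y234C lay above all other mutants.

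The median difference of the members from the other 9 mutants was -0.72 in Y234C and -0.21 in R273H, where the median over all tested genes was -0.87 and -0.71. With each library centred on its median gene, both signs turned, to 0.28 and 0.56. In the other 8 mutants the median lay between -0.18 (R248W) and 0.25 (Y163C) without centring, and between -0.50 (R248W) and 0.24 (R175H) with it. Centring turned the sign from positive to negative in R273C (-0.26), G245S (-0.10), H179R (-0.30), Y163C (-0.01) and Y220C (-0.10). The direction of the group as a whole thus depends on the scaling in most mutant lines. Y163C had 11 members at least 1 log2 unit higher and 0 that were lower by as much, where 17.7% and 6.01% of all tested genes were. The members higher and lower by as much numbered 3 and 6 in R248Q (18.6% and 13.8% of all tested genes), 2 and 5 in R248W (18.7% and 9.82%), and 2 and 1 in R273C (17.1% and 6.43%). They numbered 1 and 2 in G245S (14.9% and 11.5%), 5 and 6 in H179R (19% and 11.6%), 6 and 2 in R175H (12.4% and 16.3%), and 3 and 1 in Y220C (18.2% and 8.57%).

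Within the libraries, the members separated by base composition, a property that the rule did not use. The GC content of the coding sequences ranged from 42.1% (RPS27L) to 63.0% (RPS15), with a median of 51.1%. In Y234C, the 39 members at or below the median GC had a median difference from the other 9 mutants of -1.30, with 3 of 39 above 0, and the 38 members above it had a median of 0.08, with 22 of 38 above 0. In R273H the same medians were -0.56 and 0.29, with 11 of 39 and 26 of 38 above 0. R248Q had the same order, at -0.40 and 0.23.

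The opposite order was clearest in 4 structural mutants. In Y220C the low-GC members had a median difference of 0.58 and the high-GC members of -0.24, with 34 of 39 and 7 of 38 above 0. The pairs were 0.52 and -0.17 in R175H, 0.55 and 0.00 in Y163C, and 0.42 and -0.17 in H179R. The contact mutant R248W had this order by less, at -0.09 and -0.19, and R273C had nearly equal medians, at 0.081 and 0.075. G245S, a structural mutant, had the order of R273H, at 0.05 and 0.16. Among the controls, low-GC members were 0.82 above high-GC members in WTKD, relative to each gene's mean over the 13 lines, and 0.21 and 0.01 below them in WT and WTOE. A constant shift of a library on the log2 scale leaves this contrast unchanged. It differed in sign between the control lines as well as between the mutants. Each difference is taken from a mean over lines, so lines on both sides of it are bound to occur. Only the order of the lines is described here.

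**Figure D3:**
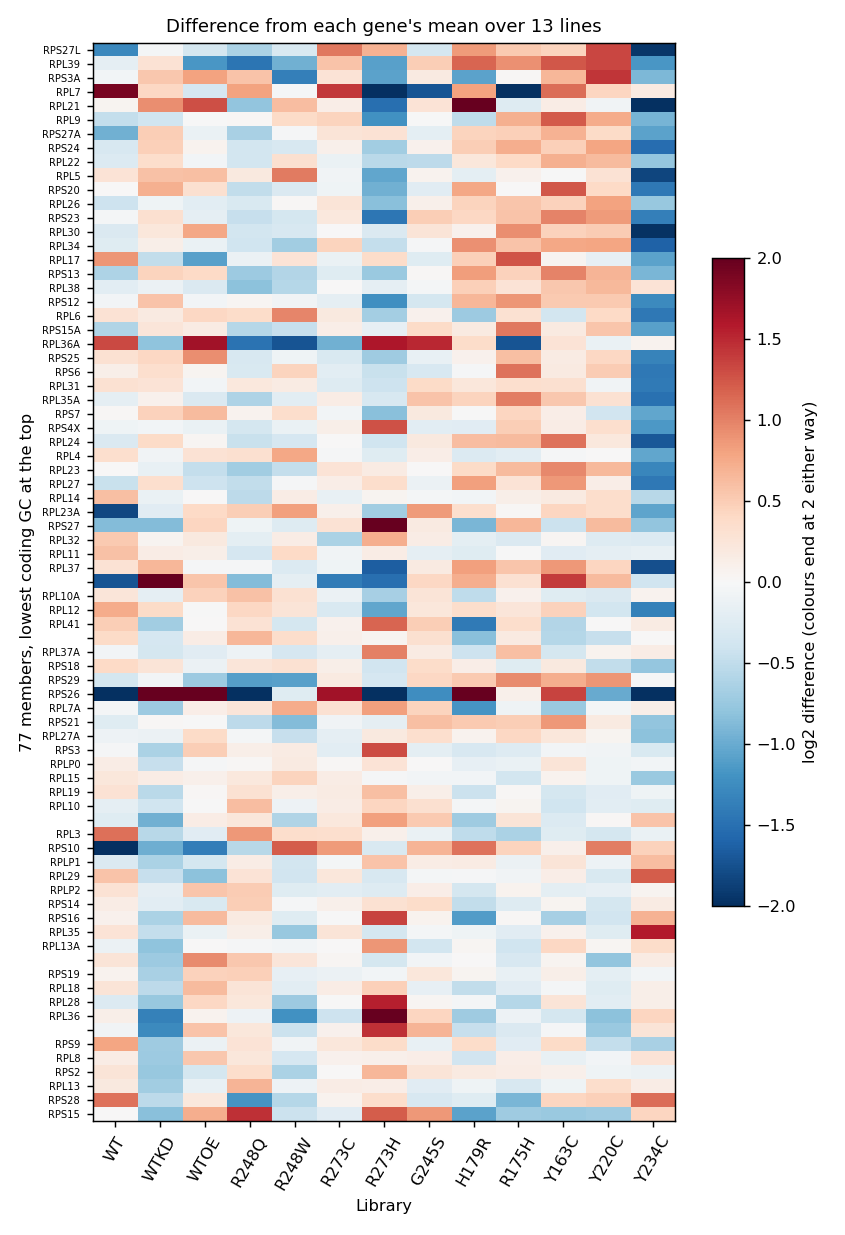
Difference of each of 77 members (rows, lowest coding GC at the top) from its own mean over the 13 lines (columns), on the log2 scale, with colours ending at 2 in either direction. The upper, low-GC rows are low in Y234C and R273H and high in Y220C, R175H, Y163C and H179R, while many lower rows are low in WTKD. A few rows carry no name.

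Over the 77 members, the Spearman rho of coding GC with the difference from the other 9 mutants was 0.68 in Y234C, 0.53 in R273H and 0.39 in R248Q. It was -0.71 in Y220C, -0.62 in R175H, -0.56 in Y163C and -0.48 in H179R, and between -0.20 and 0.04 in R248W, R273C and G245S. Over the 11564 tested genes that have a coding sequence, rho was 0.42 in Y234C, 0.12 in R273H, 0.25 in R248Q, -0.33 in Y220C, -0.08 in R175H, -0.37 in Y163C and -0.31 in H179R. In R248W rho was -0.15 over the members and -0.16 over all of these genes, in R273C -0.20 and 0.01, and in G245S 0.04 and 0.00. The sign was the same in members and in all of these genes in 9 of the 10 mutants, all but R273C, and no difference in rho was tested. These are correlations across genes within libraries, which share the library and its amplification, and genes are not independent replicates. Without RPL36, rho in R273H was 0.52. The cDNA was made by single primer isothermal amplification, and its part in this order was not tested.

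**Figure D4:**
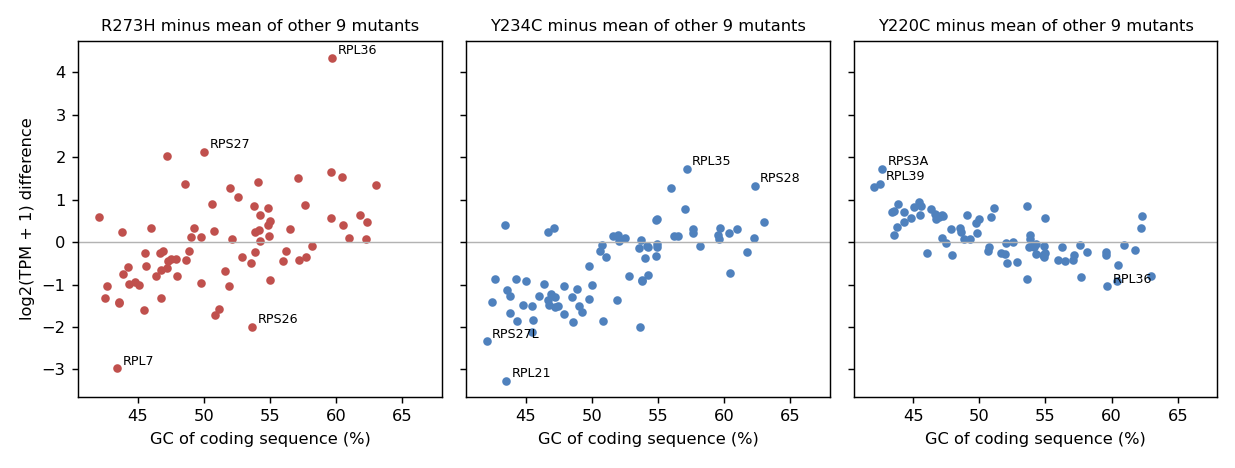
Coding GC content (horizontal axis, percent) of the 77 tested members against the log2 difference of R273H, Y234C and Y220C from the average of the remaining 9 mutants, 1 point per gene. The points rise to the right in R273H (rho 0.53) and Y234C (rho 0.68) and fall in Y220C (rho -0.71).

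Length behaved differently. Coding length had a rho of 0.55 with the difference in R248Q and 0.57 in R248W, so that longer members stood higher there, and between -0.35 (H179R) and 0.15 (R273C) in the other 8 mutants. Over all tested genes with a coding sequence the values in R248Q and R248W were 0.06 and 0.11. Coding GC and coding length of the members had a rho of 0.13 with each other.

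Pairs of members were weakly alike over the 13 lines. The mean Pearson r over all pairs of the 77 members was 0.08, and 0.10 over all pairs of tested genes. Within the low-GC members it was 0.39, within the high-GC members 0.19, and between them -0.12. Without the R273H and Y234C libraries, the 4 values were 0.04 (members), 0.19 (low GC), 0.23 (high GC) and -0.12 (between), and 0.02 over all tested genes.

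The first comparison across groups asked whether mutant p53 goes with a change in ribosomal protein RNA. It set the 10 mutants against the 3 control lines with limma, with Benjamini-Hochberg adjustment of p-values over the 14884 tested genes. Of these, 3 (0.0202%) passed an adjusted p of 0.05, and none of the 77 members did. At an unadjusted p under 0.05, 1 member (RPS10) was among the 719 genes (4.83%). Of the 77 members, 40 were higher in the mutants (45% of all genes), with a median difference of 0.02 against -0.08 for all genes. With each library centred on its median gene, 50 of 77 were higher and the medians were 0.19 and 0.09.

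RPS10, a small-subunit protein, had the largest difference. Its log2 level was 1.17 in WT, 2.81 in WTKD and 2.40 in WTOE. The contact mutants R248Q, R248W, R273C and R273H had 3.24, 5.00, 4.64 and 3.49, and the lowest, median and highest structural mutants had 3.89, 4.36 and 4.88. All 10 mutants lay above all 3 controls. RPS10 was the only member whose groups did not overlap, which was so for 1% of all tested genes in either direction (0.222% higher and 0.779% lower). The difference was 2.16 (standard error 0.49, limma, unadjusted p = 3.9e-04, adjusted p = 0.303 by Benjamini-Hochberg), which does not pass the test. Of its exon bases, 31.5% are shared with the read-through gene RPS10-NUDT3, and 30.2% of the TPM of RPS10 and its 11 like-named pseudogenes was listed under the latter. With these copies added to RPS10, the difference was 1.69 (adjusted p = 0.834, limma).

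The next positive differences were RPS27L (0.73, standard error 0.61) and RPL23A (0.71, standard error 0.52), with mutant and control lines overlapping in both. Without WT they were 0.36 and 0.08, and without WTOE that of RPL23A was 1.18. RPS27L had 4.21 in WT, 5.46 in WTKD and 5.14 in WTOE, and a lowest, median and highest level of 3.56, 5.98 and 6.84 in the mutants. RPL23A had 3.43, 5.02 and 5.64 in the same controls, and the mutants ranged from 4.20 to 6.09. With pseudogenes added, RPL23A turned to -0.29.

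The largest negative differences were in RPS26 (standard error 1.09, with libraries listed at 0 in both groups), RPL21 (-0.98, standard error 0.79) and RPL36A (-0.95, standard error 0.75), and their adjusted p in limma was 0.932. RPL21 had 4.55, 5.43 and 5.78 in WT, WTKD and WTOE and ranged from 1.33 to 6.86 in the mutants. RPL36A had 3.35, 1.22 and 3.71 in these controls and ranged from 0.30 to 3.64 in the mutants. These are genes with most of their TPM in pseudogenes, and the difference of RPS26 turned from negative to 0.83 when its pseudogenes were added. Leaving out 1 control moved RPS26 to between -2.40 (without WT) and -0.23 (without WTOE), and RPL36A to between -1.72 (without WTKD) and -0.47 (without WTOE), and RPL21 was -0.46 without R273H and Y234C. RPL36 differed by 0.50 (standard error 0.81, adjusted p = 0.963, limma), and over the settings tried this value ranged from -0.02 to 0.76.

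**Figure D5:**
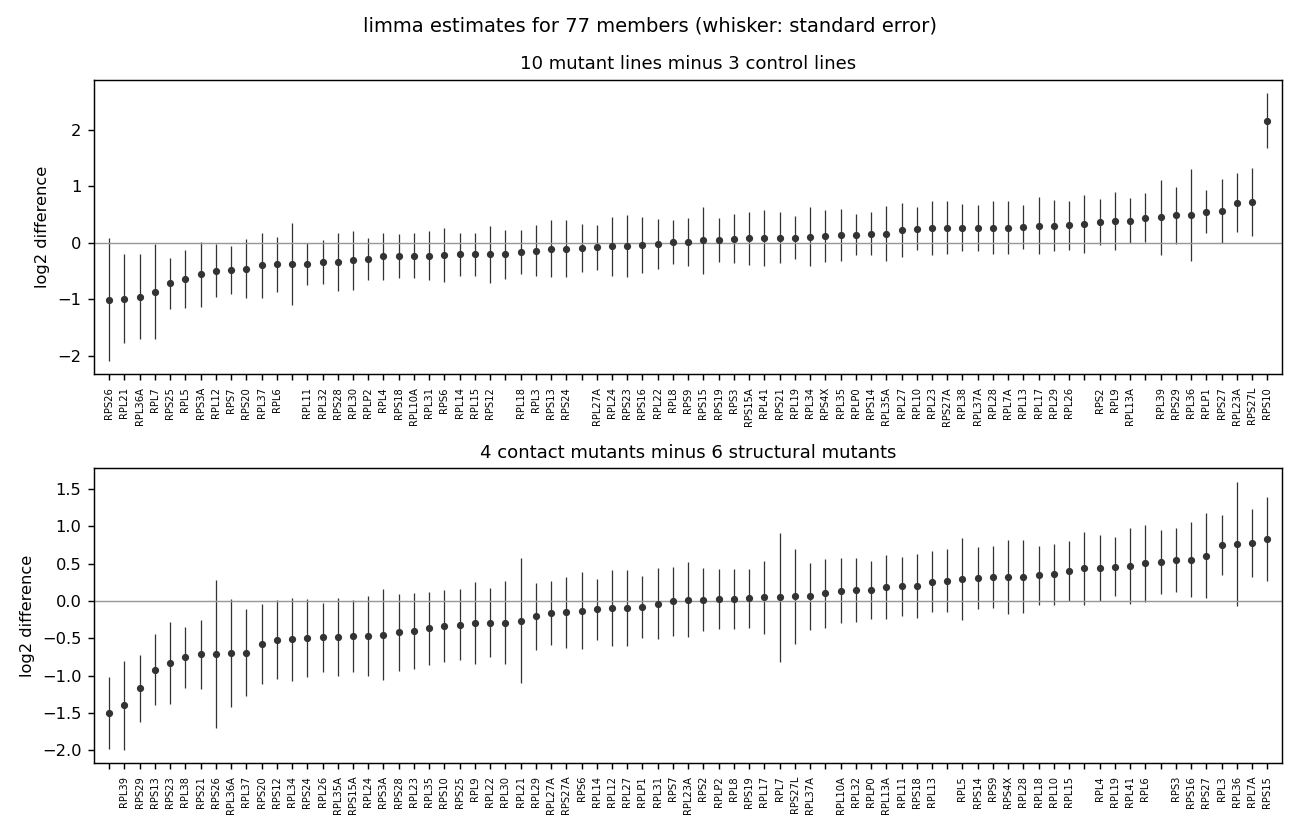
limma estimates of the log2 difference for the 77 tested members, sorted by size, for mutant minus control lines (upper panel) and contact minus structural mutants (lower panel), with whiskers for the standard error. RPS10 stands apart at 2.16 in the upper panel, and RPL39 (-1.40) and RPS29 (-1.17) are among the lowest in the lower panel. A few members carry no name. No member passed the test in either.

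The second comparison set the 4 contact mutants, whose changed residue touches DNA, against the 6 structural mutants, whose changed residue alters the fold. No gene passed an adjusted p of 0.05 in limma (0% of 14884), so that no member did, and 734 genes (4.93%) had an unadjusted p under 0.05. Among these were 3 members, all lower in the contact mutants. Of the 77 members, 39 were higher in the contact mutants (50.4% of all genes), with a median difference of 0.02.

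RPL39 and RPS29 are among them. RPL39, a short large-subunit protein at the exit tunnel, had 3.59 in R248Q, 4.08 in R248W, 5.62 in R273C and 3.96 in R273H, and 3.88, 6.09 and 6.39 as the lowest, median and highest structural mutants. RPS29, a small-subunit protein, had 4.96, 4.98, 6.25 and 5.73 in the same contact mutants, and 6.06, 6.70 and 7.01 in the structural mutants. The 2 groups overlapped in both genes. The differences of RPL39 (-1.40, standard error 0.60) and RPS29 (-1.17, standard error 0.45) had an adjusted p of 0.96 in limma.

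At the other end, RPS15 differed by 0.83 (standard error 0.57, and 0.51 without R248Q), RPL7A by 0.77 (standard error 0.46) and RPL36 by 0.76 (standard error 0.83, adjusted p = 0.994, limma). RPS15 had 11.23 in R248Q and 10.99 in R273H but 9.34 in R248W and 9.56 in R273C, within the structural range of 8.71 to 10.64. RPL7A had 12.01 in R248Q, 12.51 in R248W, 12.07 in R273C and 12.59 in R273H, and the structural mutants ranged from 10.60 to 12.22. The difference of RPL36 rested on R273H and was -0.39 without that line. Between the classes 2 members did not overlap, as was so for 1.03% of all genes in either direction (0.766% higher and 0.262% lower in contact mutants). These were RPL3 (10.81 to 11.58 in contact and 10.07 to 10.58 in structural mutants) and RPL19 (12.53 to 13.01 and 11.97 to 12.52), whose groups nearly touch.

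Members known to bind MDM2 when free of the ribosome, a list of 15, were spread over both directions. There were 8 higher and 7 lower in mutant than in control lines, with a median of 0.05, and 0 passed the test (limma). RPL5 had a log2 level of 11.75, 12.06 and 12.09 in WT, WTKD and WTOE, which lies within the mutant range of 9.65 (Y234C) to 12.51 (R248W). RPL11 had 11.72, 11.28 and 11.25 in these controls, and a lowest, median and highest level of 10.80, 10.97 and 11.54 in the mutants. The differences were -0.64 (standard error 0.51) for RPL5 and -0.37 (standard error 0.37) for RPL11, with an adjusted p of 0.932 in limma. In Y234C, 13 of these 15 members stood below the mean of the other 9 mutants, where 76.4% of all tested genes and 52 of the 77 members did.

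Of the 15 members mutated in Diamond-Blackfan anaemia, an inherited failure of red cell production, 6 were higher and 9 lower in the mutant lines, with a median of -0.16 and 0 past the test. RPS10 of that list was the 1 with an unadjusted p under 0.05, and RPS29 was among those of the second comparison. None of the 3 P-stalk genes passed the test in either comparison. RPLP0 differed by 0.15 (standard error 0.36), RPLP1 by 0.55 (standard error 0.38) and RPLP2 by -0.28 (standard error 0.38) between mutant and control lines. RPLP1 lay between 10.00 and 10.98 in the mutants and at 10.08, 9.72 and 10.01 in WT, WTKD and WTOE, so that the groups overlapped.

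The name rule leaves out 8 genes of cytosolic ribosomal proteins, their fusions or paralogs. RACK1, a scaffold on the small subunit, was the highest of them, at 11.18 to 12.47, followed by FAU at 9.04 to 11.04, which encodes RPS30 fused to a ubiquitin-like protein. None passed the test in either comparison (limma), and 6 of 8 stood above the mean of the other 9 mutants in R273H, with a median of 0.89, where 26.7% of all tested genes and 37 of the 77 members did (not tested). RPL36AL, an intronless paralog of RPL36A, had 10.50, 10.66 and 10.47 in WT, WTKD and WTOE, and between 7.11 (Y234C) and 10.39 (R248W) in the mutants. All 3 controls lay above all 10 mutants, which was so for 0.779% of all tested genes. The difference was -1.22 (standard error 0.61, adjusted p = 0.932, limma), the largest of these 8 genes.

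Other parts of the pathway were followed with lists. Of 18 tested translation factors and other TOP mRNAs, 5 were higher and 13 lower in the mutant lines (median -0.10), and the median in Y234C against the other mutants was -1.42. Of 20 genes of RNA polymerase I, which transcribes ribosomal RNA, 5 were higher and 15 lower (median -0.27). Of 30 assembly and rRNA processing factors, 4 were higher and 26 lower (median -0.43), where the median of all tested genes was -0.08. The 78 mitochondrial ribosomal proteins had 22 higher and 56 lower (median -0.19). No gene of these 4 lists passed the test in either comparison (limma). Between mutant and control lines 2 of the 30 assembly factors had an unadjusted p under 0.05 (limma), as did 4.83% of all tested genes. These were NCL (nucleolin, with a mean of 10.63 in mutants and 11.63 in controls) and EBNA1BP2 (-1.23). Of the 78 mitochondrial ribosomal proteins, 4 had an unadjusted p under 0.05 there (limma).

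Regulators of ribosome production and of TOP mRNAs were followed as well, and none passed the test in either comparison (limma). MYC, which drives ribosome production, lay between 7.09 and 8.91 in the controls and 6.38 and 8.58 in the mutants. MTOR had 6.90, 5.97 and 6.06 in WT, WTKD and WTOE and 4.85 to 6.36 in the mutants, and LARP1, which binds TOP mRNAs, had 9.02 to 9.36 in the controls and 8.28 to 9.17 in the mutants. In R273H, RPS6KB1, the kinase of ribosomal protein S6, had 9.57 against 3.57 to 5.49 in the other 9 mutants, the largest difference of the list. EIF4EBP1, a translation repressor under mTOR, had 10.06 there, against 5.58 to 8.93.

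V5 ChIP-seq peaks of 5 lines were compared with the promoters of the 80 members, taken from 2500 bp upstream to 100 bp downstream of any annotated start. Peaks were called by the authors in each line against its input, with 1 list per line. In R273H 2 members (2.5%) had a peak, against 2.68% of tested genes, and in WTOE 5 members (6.25%), against 6.72%. In Y220C, R273C and Y234C 0 members had 1, against 0.25%, 0% and 1.19% of tested genes. The shares of members with a peak were thus near or below those of tested genes.

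In R273H, RPS27L had a peak at chr15:63157176-63157613 with a fold enrichment of 4.23 and a -log10 q of 2.59, its summit 10 bp into the gene. In WTOE, the peaks of RPL39, RPL7, RPS19 and RPS2 had fold enrichments of 2.86 to 3.49 and -log10 q of 1.41 to 2.64. The medians over all WTOE peaks were a fold enrichment of 3.08 and a -log10 q of 2.09, and over all R273H peaks 4.54 and 3.36. None of the 7 member peaks reached a -log10 q of 5, and at that limit 0.284% (R273H) and 0.142% (WTOE) of tested genes had a promoter peak. RPL36 had none in its promoter in any of the 5 lists.

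The p53 decamer, which full p53 sites hold as a pair, reads the same on both strands and was searched within 150 bp of each summit. The sequences are shown because the ChIP was made with tagged p53. It was found at RPS27L in R273H and at RPS19 in WTOE, and the capitals mark it on the plus strand of GRCh38.

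RPS27L: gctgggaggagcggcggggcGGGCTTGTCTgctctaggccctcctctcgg
RPS19: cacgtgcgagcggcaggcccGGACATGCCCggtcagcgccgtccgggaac

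These stretches lie at chr15:63157507-63157556 and chr19:41860415-41860464. The decamer lay that near the summit for 15.5% of all R273H peaks and 7.01% of all WTOE peaks, so a match at a single peak is a description of its letters. The RNA of RPS27L was 6.19 in R273H, within the range of the other mutants (3.56 to 6.84), and that of RPS19 was 10.78 in WTOE, against 10.39 in WT and 9.68 in WTKD.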

How the data were processed

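Total RNA of 13 lines was sequenced by the authors with 1 library per line, and V5 ChIP in 5. The authors aligned reads to GRCh38 and counted them per gene with STAR, whose gene counts take reads that map once and overlap 1 gene, removed mitochondrial RNA and deposited log2(TPM + 1). The study's methods note high read duplication in these libraries. Depth is unknown, and no count model was used. MACS2 2.1.2.20181017 made the deposited fold enrichment, -log10 p and q and score (10 times -log10 q) of each peak at q 0.05. Bowtie2 2.1.0 and SAMtools 1.7 were the authors' ChIP tools.

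Members were matched by name. A log2 level of 1 or more in 3 or more lines kept 14884 genes, which were fitted with limma 3.58.1 in R 4.3.3 and adjusted by the Benjamini-Hochberg method, two-sided. The fit was tested on simulated data. Python 3.11.15, pandas 2.3.3 and scipy 1.17.1 were used otherwise. Coding sequences, exons and starts come from GENCODE release 44, while the authors used Ensembl release 92. No test was made for 1 line against the other 9. Named members are RPL36, the 5 highest and 5 lowest, the 5 most and least variable, the 3 largest differences either way of each comparison and of R273H and Y234C, and short lists of paralogs, stalk genes, RPL5 and RPL11. RPL28, RPS16, RPL3, RPL19, RACK1, FAU, NCL, EBNA1BP2 and the genes near RPL36 were chosen after their values were seen. Some members and other genes that the rule names are not reported here. The members, the lists and the comparisons were chosen with earlier results of these data known. Contact and structural classes are the study's, applied to the residues that the labels name.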

Additional observations from a re-analysis of the deposited data

Results flagged for a closer look

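Of 65 groups of values, 12 held a line far from the others, with a gap larger than the 95% critical value of Dixon's test, where chance flags about 1 in 20 of unselected groups. Most of these members were named for large differences or SDs, so this count is no test. Of these, 6 were Y234C in the structural mutants. Its log2 level was 12.62 in RPL35 (others 10.79 to 11.12), 10.18 in RPL29 (8.65 to 9.10), 8.86 in RPL30 (10.92 to 11.77), 9.65 in RPL5 (11.28 to 11.77), 6.02 in RPL37 (7.96 to 8.65) and 3.88 in RPL39 (5.53 to 6.39). In the contact mutants RPL37 was 6.13 in R273H (7.50 to 7.76), and R248Q stood apart in RPLP2 at 14.33 (13.56 to 13.61), in RPS19 at 10.80 (10.16 to 10.26) and in RPL39L at 4.60 (the others listed at 0). RPL39L at 1.45 and RPL3L at 1.27 were above 0 in Y220C only among the structural mutants.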

How the results depend on the processing

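No member passed the test in any of the 22 settings of mutant against control lines or the 19 of contact against structural mutants, and the smallest adjusted p of a member was 0.115 (RPS10 after quantile normalization). The difference of RPS10 lay between 1.69 and its value without WTKD, with adjusted p up to 0.834. The count over all genes in the first comparison was 5 without the filter, 6 with a pseudocount of 0.1, 0 after centring, 8 without the R273H and Y234C libraries and 0 to 11 with 1 line left out (0 without R248W, G245S, H179R, Y163C or Y220C, 1 without WTOE or R248Q, 6 without Y234C, 7 without R273H, 8 without WT, 11 without WTKD). In the second it was 1 without the filter, 5 with a pseudocount of 0.1, 1 without these 2 libraries and 0 to 1 with 1 line left out (1 without R273H or R175H). Members with an unadjusted p under 0.05 in the second comparison numbered 1 to 12 (12 of 77 without Y234C, where 7.21% of all tested genes did). With pseudogenes added, RPL23A (-0.29) and RPS26 (0.83) changed sign between mutant and control lines. Between contact and structural mutants RPL36 ranged from -0.39 (without R273H) to 1.36 (without R248W) with 1 line left out, and was -0.27 without R273H and Y234C. Adding pseudogenes, leaving out these 2 libraries and shifting the start by up to 3 bases (66.7% of member starts with a TOP run) were chosen after seeing the data. The median share of TPM was 15.2% when the 50 highest other genes were left out of the total. After centring, the median member difference was 0.56 in R273H, 0.28 in Y234C, -0.50 in R248W, -0.26 in R273C and -0.30 in H179R. At a -log10 q of at least 5, 0 members had a peak in R273H or WTOE (0.284% and 0.142% of tested genes), and within 1000 bp of a start 3 had 1 in WTOE. No paired analysis was possible because the labels give no shared replicate numbers.

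Limits are 1 library per line, unknown depth, high read duplication, amplified cDNA and 3 control lines of different construction. Members that share sequence with pseudogenes or exons with other genes are a further limit. R273H and Y234C had larger shares of TPM in their 50 highest genes than the other lines, and what this changes in the members was not tested.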
